A study of Tribolium castaneum with 8 samples.

Results

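Cells with the label NBs II/INPs/newborn neurons_1? are described here, below called the newborn neurons_1? cells. Members were all cells whose deposited annotation equals that label, and they numbered 3139 of 31573 annotated cells. Of these, 2522 came from the red flour beetle Tribolium castaneum and 617 from the fruit fly Drosophila. The beetle cells came from 1 group of 8 droplet (10x Genomics) libraries. All 8 were made from untreated embryos aged 35 to 50 hours, carrying turbo GFP, a green fluorescent protein, under a Gal4 enhancer trap that marks neuroblasts, and live fluorescent cells were sorted. An enhancer trap reports activity near its insertion site, so the sorted cells are those in which the reporter was visible. The strain names run from GoGal41519 in library 1 to GoGal41526 in library 8, one per library, although the series' design text describes a single line. The fly cells form 1 pooled set. Neither the labels nor the table state their stage, genotype or isolation.

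Neuroblasts are the neural stem cells of insects. Type I neuroblasts bud off ganglion mother cells (GMCs), which divide into neurons or glia. Type II neuroblasts first produce intermediate neural progenitors (INPs), which divide several times and make GMCs of their own, so that their lineages grow large. Newborn neurons in the fly switch on elav, an RNA-binding protein used as a general marker of neurons. The annotated label joins type II neuroblasts, INPs and newborn neurons under 1 name and ends in a question mark, which is kept as deposited. The table gives a label and a species per cell and no expression values, so elav was not analysed here and the name was not checked against marker genes. The cells are therefore called by their label, with no claim that they are progenitors or neurons.

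The 8 beetle libraries held between 77 and 7639 annotated cells, with a median of 1913. Library 3 had 77 cells and library 4 had 392, and these set the widest counting intervals. The number of molecules per cell was not used here, and how doublets were treated after sequencing is not stated. Of all barcode sequences, 72 occurred in 2 beetle libraries and 3 in a beetle library and the fly set, and none occurred more than once within a beetle library (0 duplicates). A newborn neurons_1? cell was part of 15 of the 72 and of 1 of the 3. The label covered 11.9% of the pooled beetle cells, and each shared sequence has 2 cells that could carry it. Leaving out every cell with a barcode shared between libraries gave a mean share of 12.7% of all cells, against 12.7% with them. The labels do not say whether the libraries are separate collections of embryos, and the spread behind each SD and p-value may then be technical.

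The deposited annotation is named for brain NBs (neuroblasts), and whether it holds all sorted cells is not stated. Newborn neurons_1? was among the most frequent labels of its beetle cells. Among 10 labels it held rank 3 in 6 of 8 libraries, behind GMC and NBs I, the label named after type I neuroblasts. It held rank 2 in library 5, ahead of NBs I, and rank 6 in library 8. It also held rank 3 in the fly set, where NBs I was ahead of GMC. Among beetle libraries its share of all cells was 15.5% in library 1 (272 of 1754 cells), 10.8% in library 2 (214 of 1974) and 11.7% in library 3 (9 of 77). Libraries 4, 5 and 6 had 11.0% (43 of 392), 19.1% (710 of 3726) and 12.1% (225 of 1852). Libraries 7 and 8 had 14.5% (541 of 3734) and 6.65% (508 of 7639). Library 5 was thus highest and library 8 lowest.

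Set in order, most libraries could not be told from their neighbours. The exact 95% binomial intervals of adjacent libraries overlapped in the run 2, 4, 3, 6, 7 and 1. Within that run library 2 (9.50% to 12.3%) was still apart from library 7 (13.4% to 15.7%) and library 1 (13.8% to 17.3%). Only library 8, at the bottom (6.10% to 7.23%), and library 5, at the top (17.8% to 20.4%), were separated from the next library. The wide interval of library 3 (5.49% to 21.0%) overlapped with both. The 8 shares averaged 12.7% ± 3.70 (SD, n = 8). Counting error alone would have given an SD of 1.53 percentage points, most of it from library 3. Library 5 held 17.6% of the beetle cells and 28.2% of the beetle newborn neurons_1? cells. Library 8 held 36.1% of the beetle cells and 20.1% of the beetle newborn neurons_1? cells.

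**Figure D1:**
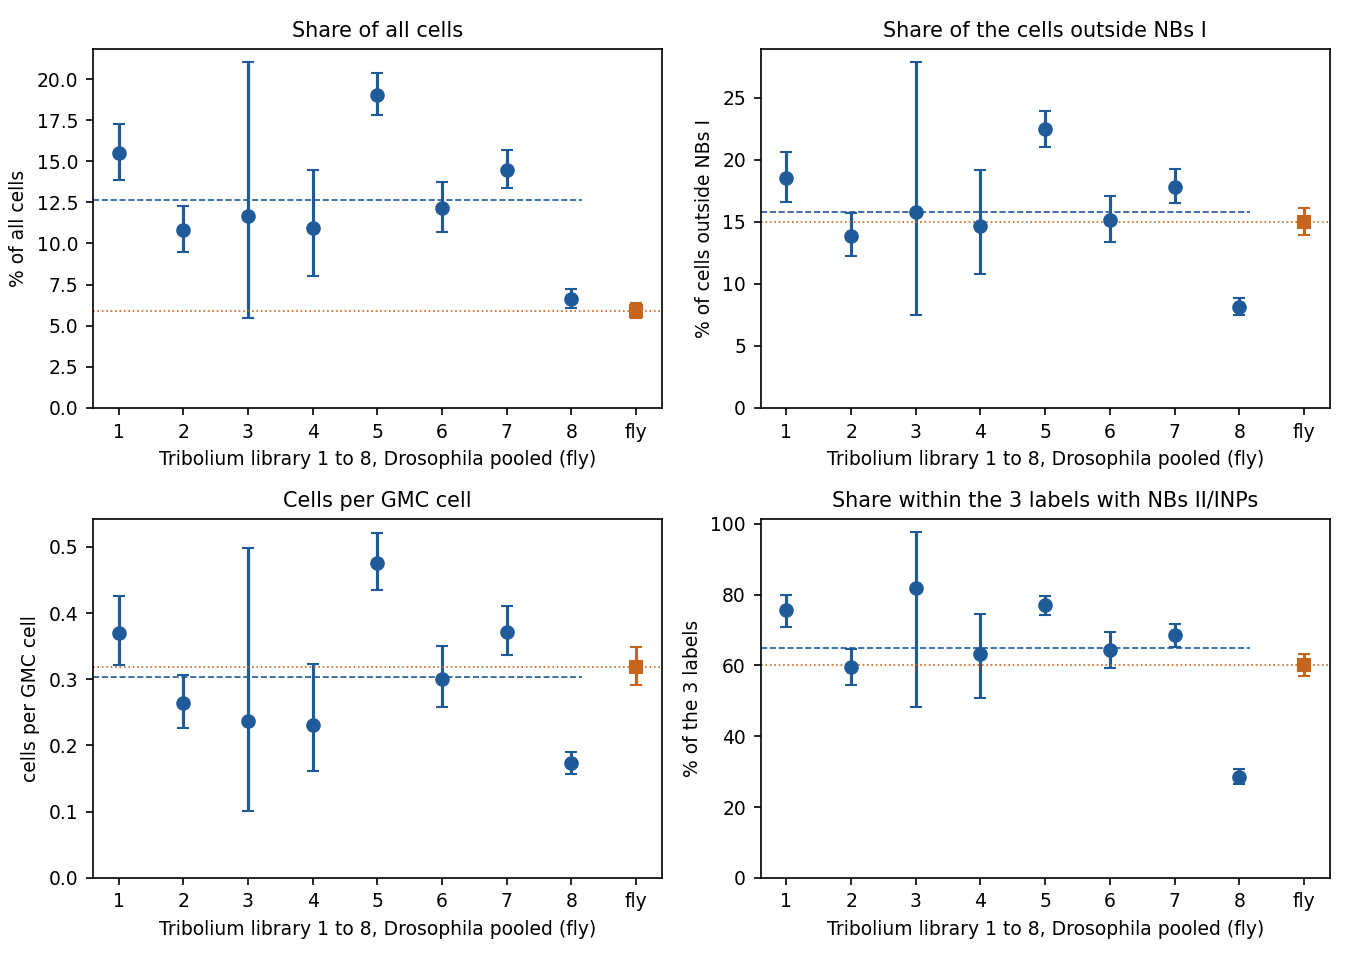
Newborn neurons_1? cells in 8 Tribolium libraries (blue circles) and the pooled Drosophila set (orange square, fly) under 4 ways of counting, with exact 95% binomial intervals. The dashed line is the mean of the 8 libraries and the dotted line the Drosophila value. All 8 libraries lie above the fly set as a share of all cells, with means of 12.7% against 5.92%, whereas outside NBs I the mean is 15.8% against 15.0% and libraries lie on both sides.

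The share of newborn neurons_1? was compared with neighbouring and related labels inside the same library. The test was an exact two-sided sign-flip permutation over libraries, with Benjamini-Hochberg adjustment over 4 comparisons. NBs I and Mesodermal/muscle progenitors were picked as its neighbours in the order of labels in these same libraries. The other labels were picked for their related names, with earlier results of these data known. The p-values therefore describe these libraries and are no independent support for the order of labels. The smallest unadjusted p that 8 libraries allow is 0.0078. Newborn neurons_1? exceeded NBs II/INPs, the label for type II neuroblasts and INPs without a question mark, by 10.4 ± 5.38 percentage points (SD, n = 8). It was the higher of both in 7 of 8 libraries (exact permutation p = 0.016, adjusted 0.031). It exceeded NBs II/INPs/newborn neurons_2?, the other label with a question mark, by 7.76 ± 5.17 percentage points (SD, n = 8), again in 7 of 8 libraries (exact permutation p = 0.016, adjusted 0.031). It lay below NBs I by 7.48 ± 6.62 percentage points on average (SD, n = 8) and was higher in 1 of 8 libraries (exact permutation p = 0.023, adjusted 0.031).

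Library 8 was the exception to both comparisons with related labels, and library 5 the exception to the comparison with NBs I. All 3 calls held without library 1, 5 or 8 (adjusted exact permutation p = 0.021 to 0.047). They were lost without library 2, 3, 4, 6 or 7, where the adjusted exact permutation p was 0.0625 for each while the differences stayed at 10.2 to 10.7 percentage points for NBs II/INPs, 7.44 to 8.10 for newborn neurons_2? and -7.95 to -6.51 for NBs I. Against Mesodermal/muscle progenitors, a label outside the nervous system, newborn neurons_1? was 2.80 ± 3.34 percentage points higher (SD, n = 8) and higher in 7 of 8 libraries, a difference that did not pass (exact permutation p = 0.0625, adjusted 0.0625). Without library 8, the only library where it was lower, it was 3.75 ± 2.12 percentage points higher (SD, n = 7). It was then higher in 7 of 7 libraries, with an adjusted exact permutation p of 0.021. The unadjusted exact permutation p was 0.016, the smallest that 7 libraries allow. This pass thus follows from leaving out the only opposing library.

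Within the 3 labels whose names contain NBs II/INPs, newborn neurons_1? was the most frequent in 7 of 8 beetle libraries. It made up 75.6% of them in library 1 (272 of 360 cells), 59.6% in library 2 (214 of 359) and 81.8% in library 3 (9 of 11). In libraries 4, 5 and 6 it made up 63.2% (43 of 68), 77.0% (710 of 922) and 64.5% (225 of 349). In library 7 it made up 68.6% (541 of 789), and in library 8 28.5% (508 of 1785). Libraries 1 to 7 thus lay between 59.6% and 81.8%, and library 8 lay far below them, with an exact 95% interval of 26.4% to 30.6%. The mean was 64.8% ± 16.6 (SD, n = 8), and 70.0% ± 8.23 without library 8 (SD, n = 7).

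In library 8 the rest of this trio was split between newborn neurons_2? at 40.7% (726 cells) and NBs II/INPs at 30.9% (551 cells). In libraries 1 to 7 newborn neurons_2? ranged from 17.5% to 30.1%, and between 0% and 11.8% were NBs II/INPs. The 0% was library 3, with 11 cells in the trio. Taking 3 cells as an approximate upper limit for a count of 0, up to 3.90% of all its cells could be NBs II/INPs. That limit is on all cells of library 3, and its share of the trio, with 11 cells, is bounded far less tightly. Per newborn neurons_2? cell there were 0.700 newborn neurons_1? cells in library 8 (exact 95% interval 0.623 to 0.785), against 3.32 ± 0.981 in libraries 1 to 7 (SD, n = 7). The lowest of those 7 was library 2 at 1.98. Newborn neurons_1? and newborn neurons_2? summed to 16.2% of all cells in library 8. That sum lay between 14.3% and 23.8% in libraries 1 to 7, so library 8 was inside their range for the sum and outside it for each label.

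A higher share of other labels lowers the share of newborn neurons_1? by arithmetic. Its share was therefore also counted outside NBs II/INPs, newborn neurons_2? and Sensory NBs, labels picked because they were high in library 8. The Midline_NBs label was also highest there, at 3.23% against 3.13% in library 6, and was kept in. The share of newborn neurons_1? was then 8.46% in library 8 (exact 95% interval 7.76% to 9.19%), against 14.4% ± 3.21 in libraries 1 to 7 (SD, n = 7). The lowest of those was 11.7% in library 4 (exact 95% interval 8.63% to 15.5%). Library 8 was the lowest under this count too, but its interval overlapped with those of the small libraries 3 and 4, as it did per GMC cell. The 8 libraries belong to 1 group with 1 age range and no treatment. Each carries its own strain name, so strain as labelled cannot be told apart from library. What sets library 8 apart was not tested.

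**Figure D2:**
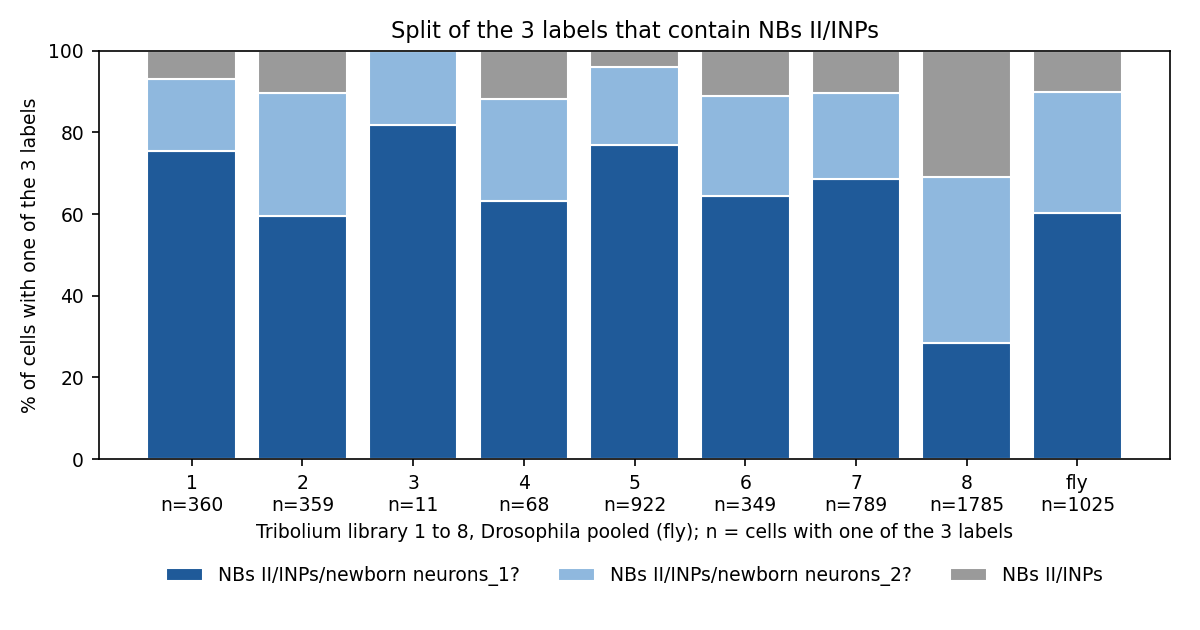
Percentage of the cells with one of the 3 labels that contain NBs II/INPs (y axis) in 8 Tribolium libraries and the pooled Drosophila set (fly), with the number of such cells under each bar. Newborn neurons_1? (dark blue) makes up 59.6% to 81.8% in libraries 1 to 7, 28.5% in library 8 and 60.2% in Drosophila.

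Set against GMC, the progeny label that was the most frequent in the beetle, newborn neurons_1? cells were present at 0.303 ± 0.0979 per GMC cell (SD, n = 8). Library 5 had 0.476 newborn neurons_1? cells per GMC cell, library 7 had 0.372 and library 1 had 0.371. Library 6 had 0.301 and library 2 had 0.264, followed by 0.237 in library 3, 0.231 in library 4 and 0.173 in library 8. Only library 5 was separated from its neighbour by its exact 95% interval (0.435 to 0.521), though library 3 (0.101 to 0.498) overlapped with it. Library 8 (0.158 to 0.191) overlapped with library 4 (0.162 to 0.324), so per GMC cell it was not separated from the smaller libraries.

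Outside NBs I the share was 18.5%, 13.9%, 15.8% and 14.6% in libraries 1 to 4, and 22.4%, 15.2%, 17.8% and 8.14% in libraries 5 to 8. The mean was 15.8% ± 4.13 (SD, n = 8), and 16.9% ± 2.96 without library 8 (SD, n = 7). Library 5 was again the highest and library 8 the lowest, each with an interval apart from the next library. Library 3 (exact 95% interval 7.48% to 27.9%) overlapped with both. The spread over libraries exceeded counting error under each of the 4 ways of counting. The chi-square per degree of freedom, which is near 1 for counting error alone, was 61.5 for the share of all cells, 58.5 outside NBs I, 38.6 per GMC cell and 118.1 within the 3 labels. Without library 8 these were 15.6, 11.6, 11.2 and 8.93. The values describe these libraries and were not turned into p-values.

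The series compares fly and beetle under a shared set of labels, and for newborn neurons_1? the answer depended on what the cells were counted against. As a share of all cells the beetle mean of 12.7% ± 3.70 (SD, n = 8) was 2.14 times the fly value of 5.92% (617 of 10425 cells, exact 95% interval 5.47% to 6.39%). All 8 libraries lay above the fly set, by 0.732 to 13.1 percentage points, and for libraries 3 and 8 the exact intervals overlapped with that of the fly. Outside NBs I the beetle mean of 15.8% was 1.05 times the fly value of 15.0% (617 of 4120 cells, exact 95% interval 13.9% to 16.1%). Of the 8 libraries, 5 lay above the fly set and 3 below it. The difference ran from -6.83 percentage points in library 8 to 7.46 in library 5.

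The 2 counts differ by whether NBs I cells are in the denominator. Cells outside NBs I made up 79.9% ± 3.91 of the beetle libraries (SD, n = 8) and 39.5% of the fly set. With all beetle cells pooled, the ratio of beetle to fly was 2.01 for the share of all cells. It is the product of a ratio of 2.07 for the cells outside NBs I and a ratio of 0.974 for newborn neurons_1? among them. Per NBs I cell there were 0.669 ± 0.311 newborn neurons_1? cells in the beetle (SD, n = 8), against 0.0979 in the fly (exact 95% interval 0.0899 to 0.106). All 8 libraries lay above the fly here, with no overlap of intervals, and the lowest was library 8 at 0.363.

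Per GMC cell the species lay close together. The beetle mean was 0.303 ± 0.0979 (SD, n = 8), against 0.319 in the fly (617 per 1935 GMC cells, exact 95% interval 0.291 to 0.349), a ratio of 0.951. Without library 8 the beetle mean was 0.322, just above the fly. Libraries 1, 5 and 7 lay above the fly and the other 5 below it. Intervals overlapped with the fly's in 6 of 8 libraries, with library 5 above and library 8 below. The differences of single libraries ran from -0.145 to 0.157 cells per GMC cell. This is a range over libraries and sets no bound on a species difference, as the fly set has no spread of its own.

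Within the 3 labels that contain NBs II/INPs, newborn neurons_1? made up 64.8% ± 16.6 in the beetle (SD, n = 8), against 60.2% in the fly (617 of 1025 cells, exact 95% interval 57.1% to 63.2%). With all beetle cells pooled the direction turned, at 54.3% in the beetle against 60.2% in the fly, and without library 8 the beetle mean was 70.0%. Of the libraries, 6 lay above the fly and 2 below it, and intervals overlapped in 4. The fly's split of 29.8% newborn neurons_2? and 10.0% NBs II/INPs was near that of library 2, at 30.1% and 10.3%. Among neural labels outside NBs I, that is without mesodermal, blood cell and PCGs labels, newborn neurons_1? made up 19.5% ± 5.77 in the beetle (SD, n = 8), against 19.5% in the fly. Among neural labels with NBs I included, the values were 15.0% ± 4.92 in the beetle (SD, n = 8), against 6.52% in the fly. The ratio of beetle to fly was thus 2.30 with the non-neural labels left out and NBs I kept, and 0.999 with NBs I left out as well.

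**Figure D3:**
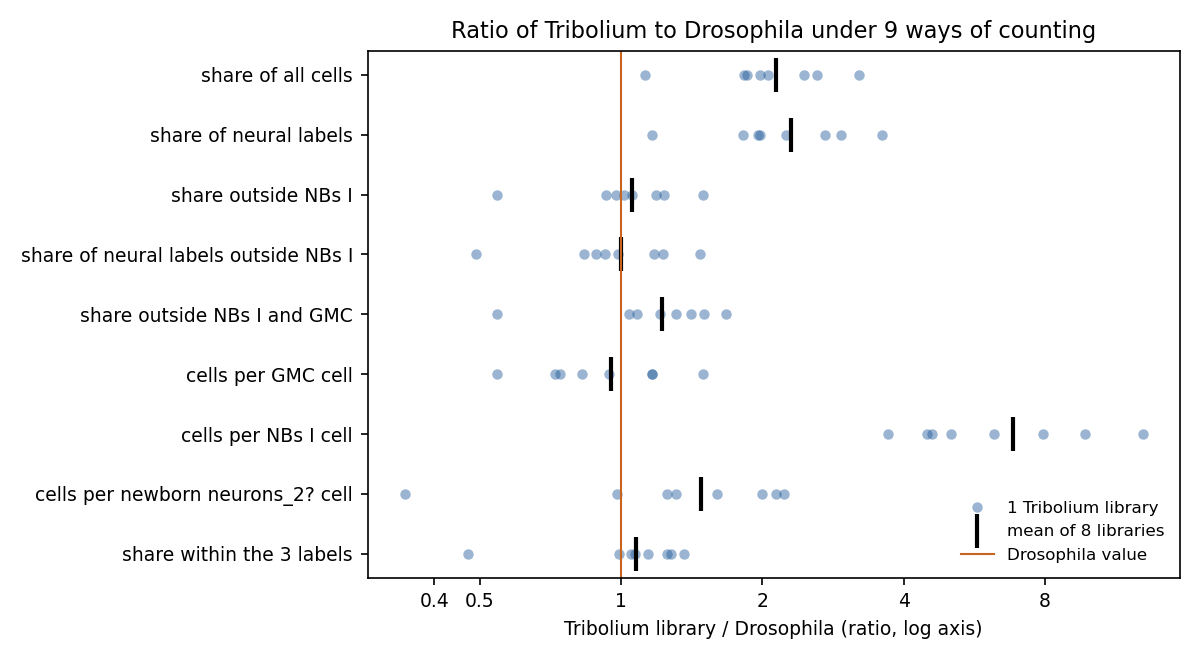
Ratio of each Tribolium library (blue points) and of the mean of 8 libraries (black bars) to the pooled Drosophila value (orange line at 1) on a log axis, for 9 ways of counting newborn neurons_1? cells. The mean ratio is 2.14 for all cells, 1.05 outside NBs I, 0.951 per GMC cell and 6.83 per NBs I cell.

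No p-value was computed between the species, because the fly cells are 1 pooled set and a permutation of 8 values against 1 cannot give a p below 0.111. Stage, dissection and sort of the fly cells cannot be told apart from the species. The name of the deposited annotation speaks of label transfer, with no method stated, so a label may not be assigned alike in both species. An effect of this on the species ratios was not tested. In the fly set 193 cells carry a barcode suffix, of which 64 share their sequence with a fly cell without one. Newborn neurons_1? made up 8.29% of the cells with a suffix (16 of 193, exact 95% interval 4.81% to 13.1%), against 5.87% of those without (601 of 10232, 5.43% to 6.35%).

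Over the 8 beetle libraries the share of newborn neurons_1? was set against the share of 8 other labels and against the number of cells, 9 relations in all. After Benjamini-Hochberg adjustment none of the 9 passed by Pearson's r or Spearman's rho (0 of 9 each), and 1 had an unadjusted exact permutation p under 0.05. It was Midline_NBs, the label named after the neuroblasts of the ventral midline. Pearson's r was -0.72 (n = 8, exact two-sided permutation p = 0.037, adjusted 0.25) and Spearman's rho was -0.74 (exact permutation p = 0.046, adjusted 0.41). Library 5 had the highest share of newborn neurons_1? and the lowest of Midline_NBs at 1.18%, and library 8 the lowest share of newborn neurons_1? and the highest of Midline_NBs at 3.23%. Leaving out libraries 3 and 5, which had the least Midline_NBs, gave an r of -0.77 (n = 6, exact permutation p = 0.079). Without library 3 alone, where 1 of 77 cells was Midline_NBs, r was -0.87, with an adjusted exact permutation p of 0.030. Leaving out any other single library gave an adjusted exact permutation p of 0.22 to 0.40.

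Library 8 also bore on the relations with more frequent labels. With NBs I, r was -0.52 over 8 libraries (exact permutation p = 0.19, adjusted 0.25) and rho was -0.55 (exact permutation p = 0.17, adjusted 0.51). Leaving out libraries 3 and 4, at the high end of NBs I, gave an r of -0.64 (n = 6, exact permutation p = 0.175). Without library 8 r was -0.86 (n = 7, exact permutation p = 0.0083, adjusted 0.075). With Mesodermal/muscle progenitors, r was 0.53 over 8 libraries (exact permutation p = 0.18, adjusted 0.25) and rho was 0.64 (exact permutation p = 0.096, adjusted 0.43). Without libraries 3 and 4, r was 0.75 (n = 6, exact permutation p = 0.083). Over libraries 1 to 7 it was 0.78 (n = 7, exact permutation p = 0.039, adjusted 0.17). The shares in a library add up to the whole and are tied to each other.

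**Figure D4:**
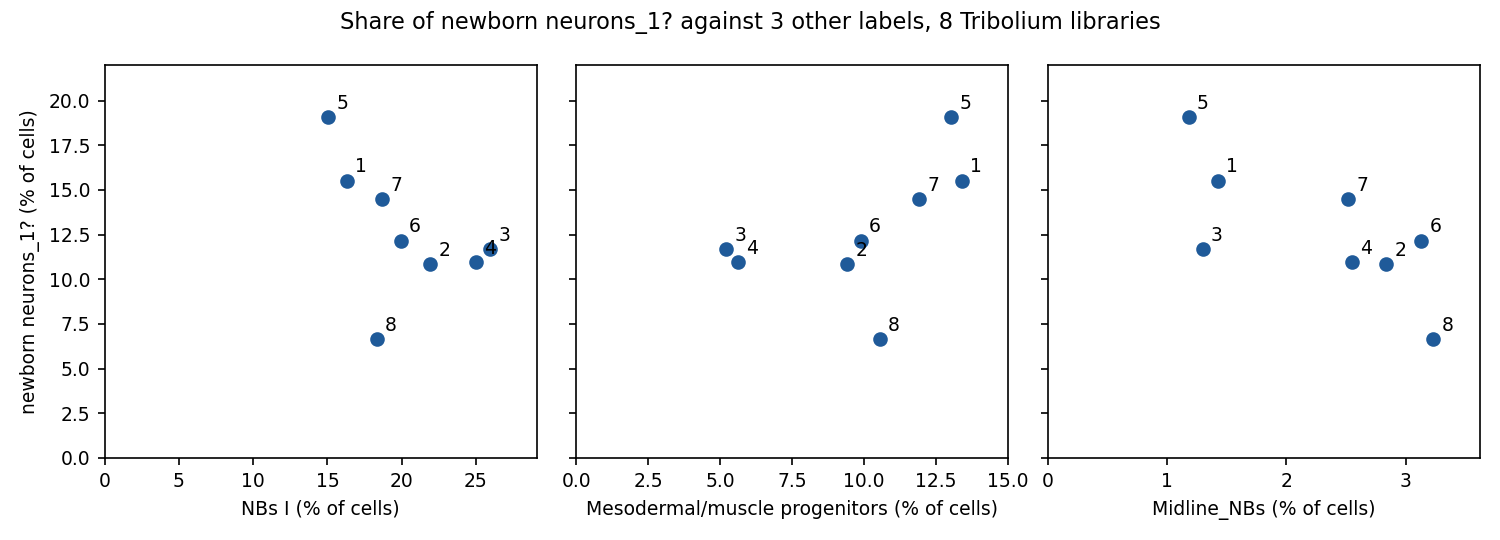
Share of newborn neurons_1? (y axis, % of all cells) against the shares of NBs I, Mesodermal/muscle progenitors and Midline_NBs (x axes, % of all cells) in the 8 Tribolium libraries, numbered. Library 8 lies apart from the others in the first pair of panels at 6.65%, and library 5 has the highest share at 19.1%.

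None of the remaining relations had an unadjusted exact permutation p under 0.05 over 8 libraries, and several changed with library 8. With NBs II/INPs and newborn neurons_2?, r was -0.67 and -0.59 over 8 libraries (exact permutation p = 0.084 and 0.14, adjusted 0.25 each), and rho was -0.43 and -0.38 (exact permutation p = 0.30 and 0.36, adjusted 0.54 each). Without library 8 r was -0.20 and 0.04 (n = 7, exact permutation p = 0.64 and 0.94). Without library 3 alone r was -0.79 and -0.72 (n = 7, adjusted exact permutation p = 0.066 and 0.23). Leaving out libraries 3 and 8, which lay farthest from the median of either label, gave r values of -0.82 and -0.31 (n = 6, exact permutation p = 0.044 and 0.56, adjusted 0.25 and 0.72). With the number of cells r was -0.25 (exact permutation p = 0.54, adjusted 0.60) and rho was -0.07 (exact permutation p = 0.88, adjusted 0.99), and without libraries 3 and 8 r was 0.72 (n = 6, exact permutation p = 0.13). The sign turned on library 8, since r was 0.72 without library 8 alone (n = 7) and -0.33 without library 3 alone (n = 7). With GMC r was -0.10 (exact permutation p = 0.80, adjusted 0.80) and rho was 0.00 (exact permutation p = 1.0). That r was 0.40 without libraries 3 and 4 (n = 6) and -0.51 without library 8 (n = 7). With Sensory NBs r was -0.62 (exact permutation p = 0.18, adjusted 0.25) and rho was -0.24 (exact permutation p = 0.58, adjusted 0.75), and r was -0.05 with libraries 3 and 8 left out (n = 6). With plasmatocytes/embryonic hemocytes/macrophages, the blood cell label, r was 0.60 (exact permutation p = 0.12, adjusted 0.25) and rho was 0.43 (exact permutation p = 0.30, adjusted 0.54), and r was 0.04 without libraries 4 and 8 (n = 6).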

How the data were processed

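The 1 deposited table gives a barcode, a label and a species for each cell. The submitters' processing notes list Cell Ranger and Scanpy, without saying what either did. The table's own name speaks of brain NBs and of label transfer. Genome builds, cell filters and the transfer method were not stated by the authors in the labels or the table. Beetle cells were assigned to libraries by matching the barcode suffix, 1 to 8, to the number at the end of each sample's title. The match rests on the number alone, and all 8 libraries are of 1 group. Fly cells were taken as 1 set.

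Cells were counted per library and label. Means and SDs weight the libraries equally. Intervals are exact (Clopper-Pearson) at 95%, for ratios from the share of both counts, and cover counting error only. Tests were exact permutations over libraries. The named items are the labels of the table, fewer than 20. The label, the measures and the tests were chosen with earlier results of these data known. Intervals came from scipy 1.17.1, and counts from pandas 2.3.3 and numpy 2.4.6 under Python 3.11.15. Figures were drawn with matplotlib 3.10.9.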

Additional observations from a re-analysis of the deposited data

Results flagged for a closer look

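In 10 measures of newborn neurons_1? over the 8 beetle libraries, the distance of the most extreme library from the next was divided by the range and set against Dixon's 95% critical value. In 1 measure it was exceeded. Within the 3 labels that contain NBs II/INPs, newborn neurons_1? made up 28.5% in library 8, against 59.6% in the nearest library, a gap of 0.584 of the range. Chance flags about 1 in 20 sets of values, and the 10 measures share their cells. As a share of all cells library 8 was also lowest at 6.65%, but its gap was 0.338 of the range and did not exceed the critical value.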

How the results depend on the processing

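Of 241 values recomputed with 1 choice changed at a time, 208 kept their direction and, where tested, their side of the threshold, or moved by less than 1 SD where there was no test, as did both values without libraries 3 and 8, an exclusion chosen after seeing the data. For the means over libraries, part of this count was fixed in advance. Leaving out 1 library, or taking the median, cannot move a mean of 8 values by 1 SD. Leaving out non-neural labels and PCGs cannot change the count per GMC cell or the share within the 3 labels. Tribolium minus Drosophila changed sign for 3 measures. Outside NBs I it was 0.823 percentage points, and -0.385 with all beetle cells pooled or -0.0127 without non-neural labels and PCGs. Leaving out 1 library gave -0.125 (library 5) to 1.92 (library 8). Per GMC cell it was -0.0158, and 0.00726 without libraries of fewer than 500 cells, with a range of -0.0405 (without library 5) to 0.00275 (without library 8). Within the 3 labels it was 4.65, and -5.88 with cells pooled, where library 8 weighs most, with a range of 2.22 (without library 3) to 9.84 (without library 8). As a share of all cells it was 6.75 and ranged from 5.84 to 7.61. Without libraries of fewer than 500 cells, 6 remain, and the differences to NBs I, newborn neurons_2? and NBs II/INPs were -5.25, 7.72 and 10.5 percentage points (adjusted exact permutation p = 0.125 each). Leaving out 1 library gave -9.12 to -6.51, 6.82 to 9.27 and 9.35 to 12.0, and for Mesodermal/muscle progenitors 2.27 to 3.75. The lower number of libraries raises the smallest p there. For Midline_NBs r ranged from -0.87 to -0.58 when 1 library was left out. The r with 4 other measures, none past the threshold, changed sign. For GMC it was 0.14 among cells outside GMC and 0.40 without 2 libraries, and ranged from -0.51 to 0.073. For the number of cells it was 0.72 without 2 libraries and ranged from -0.54 to 0.72, for Sensory NBs from -0.72 to 0.16 and for newborn neurons_2? from -0.78 to 0.036, where the value above 0 was that without library 8. No paired analysis between groups of samples was possible because all libraries belong to 1 group. Counts limit library 3 most.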

Other observations

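Over all cells, 139 barcode sequences occurred in 2 cells, of which 25 involved a newborn neurons_1? cell. In 0 of these 25 did both cells carry the label. The label covered 3139 of all 31573 cells. At that share few pairs of unrelated cells would both carry it, so the 0 says nothing about the label. The other cell was not examined further.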
